A study of Mus musculus with 6 samples.

Results

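Microtubules are hollow polymers of tubulin that carry cargo, shape the leading process and axon of a migrating neuron and build the spindle of a dividing progenitor. Proteins that bind along the lattice stabilise it, proteins at the growing plus end and the anchored minus end set how it grows, severing enzymes cut it, and other enzymes add or remove chemical groups on tubulin. In the developing cortex the structural microtubule-associated proteins (MAPs) and the stathmins are abundant in young neurons, while spindle proteins mark dividing cells. The genes described here are the MAPs, severing enzymes and tubulin-modifying enzymes on a list of 44 symbols, chosen by name. Of these, 41 were found among the 21937 gene symbols of the table, 36 by their symbol and 5 by an older form (Mtap1a, Mtap1b, Mtap2, Mtap4 and Mtap6 for Map1a, Map1b, Map2, Map4 and Map6). The symbols Camsap2, Camsap3 and Svbp were absent.

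Progenitors of the mouse embryonic cortex received plasmids by in utero electroporation, injected into the lateral ventricle at embryonic day 14.5. The plasmid carried a control shRNA (NTC, 3 libraries) or an shRNA against Nat14 (shNat14, 3 libraries), and GFP-positive live cells of the cortex were sorted at embryonic day 18.5 for RNA sequencing. Strain, the embryos behind each library and the number of shRNA sequences are not stated, nor is it said that replicate libraries came from different embryos, so the p-values measure a spread between libraries that may be technical. The sort aimed at the electroporated cells and their progeny, whatever their type, and the promoter that drives GFP is not stated. Transcripts of microglia and mural cells were also present, such as C1qb and Rgs5 at a mean log2 CPM of 2.81 and 5.33. Whether they came from GFP-positive cells, or from other cells or RNA carried along, was not tested.

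The data are the authors' own comparison, with a log2 fold change, a mean level over the libraries in log2 CPM, which are read counts scaled to library size, a p-value and an adjusted p for each gene. It gives no value per library, so no spread within a group can be shown, and the depth is unknown. A positive fold change means a higher level in shNat14 than in NTC, a direction read from the negative sign of the targeted gene. Nat14 stood at -3.31 in the authors' deposited table (adjusted p = 1.2e-08), 10.05% of the control level, and this sign is therefore no separate check of the library labels. Cortical genes were present at a mean log2 CPM of at least 3.52 for 6 regional factors such as Emx1 and Pax6, and from 4.88 to 11.30 for 12 neuronal genes in the authors' deposited table. Xist stood at 5.12 (adjusted p = 0.0112) and 4 of 4 Y-linked genes were negative, with a median of -1.09 and none called, in the authors' deposited table. The X and Y chromosomes hold 0 of the 41 genes, and the part of embryo sex in their values was not tested.

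The title of the series names cytoskeletal remodelling, and the comparison asks whether transcripts of microtubule regulators differed between cells with the Nat14 shRNA and control cells. None of the 41 microtubule regulators was called at an adjusted p under 0.05 (0 of 41), in a table where 0.155% of all genes were. Their fold changes in the authors' deposited table had a median log2 value of 0.07 and a range from -0.76 to 1.64, the largest at low levels, beside a median of 0.00 over the 17400 genes above the lowest mean level. The single gene with an unadjusted p under 0.05 was Clasp2, which stabilises growing plus ends (1 of 41, where 5.04% of all genes and 6.35% of those above the lowest level had such a p). Positive fold changes were listed for 25 genes and negative ones for 16, so 61% were positive (23 of 41 when all values were re-centred on the median of better expressed genes, a shift of 0.032), beside 50.3% of genes above the lowest level in the authors' deposited table. Among genes whose level was at least the median, 20 of 36 microtubule regulators (55.6%) and 53.6% of all genes were positive in the authors' deposited table. An unadjusted p under 0.1 was found for 7 of the 41 (17.1%), beside 11.3% of genes above the lowest level. All 7 were positive, a direction in which 6.25% of genes above the lowest level had such a p, namely Map1b, Map6, Clasp2, Fign, Fignl1, Ttll7 and Ttll11, and each had an adjusted p of 0.985 or more in the authors' deposited table.

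Levels were compared between genes per kilobase of the longest coding transcript of the GENCODE M21 annotation, since a long transcript gathers more reads. On this scale Stmn1, a stathmin that sequesters tubulin, led with 11.83 log2 CPM per kb in the authors' deposited table after division by length. It was followed by the acetyltransferase Atat1 at 7.74, the stathmins Stmn4 and Stmn3 at 7.68 and 7.52, and the neuronal MAPs Map1b, Mapt and Map2 at 7.34, 7.20 and 6.92 log2 CPM per kb from the authors' deposited table. The plus-end genes Clasp2, Mapre1 and Mapre2 came next, at 6.86, 6.44 and 6.17 log2 CPM per kb from the authors' deposited table. The lowest levels per length were those of the severing enzyme gene Fign (-1.94) and the polyglutamylase gene Ttll11 (-2.31 log2 CPM per kb) from the authors' deposited table. With no values per library, whether neighbours in this order differ beyond their spread cannot be told.

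**Figure D1:**
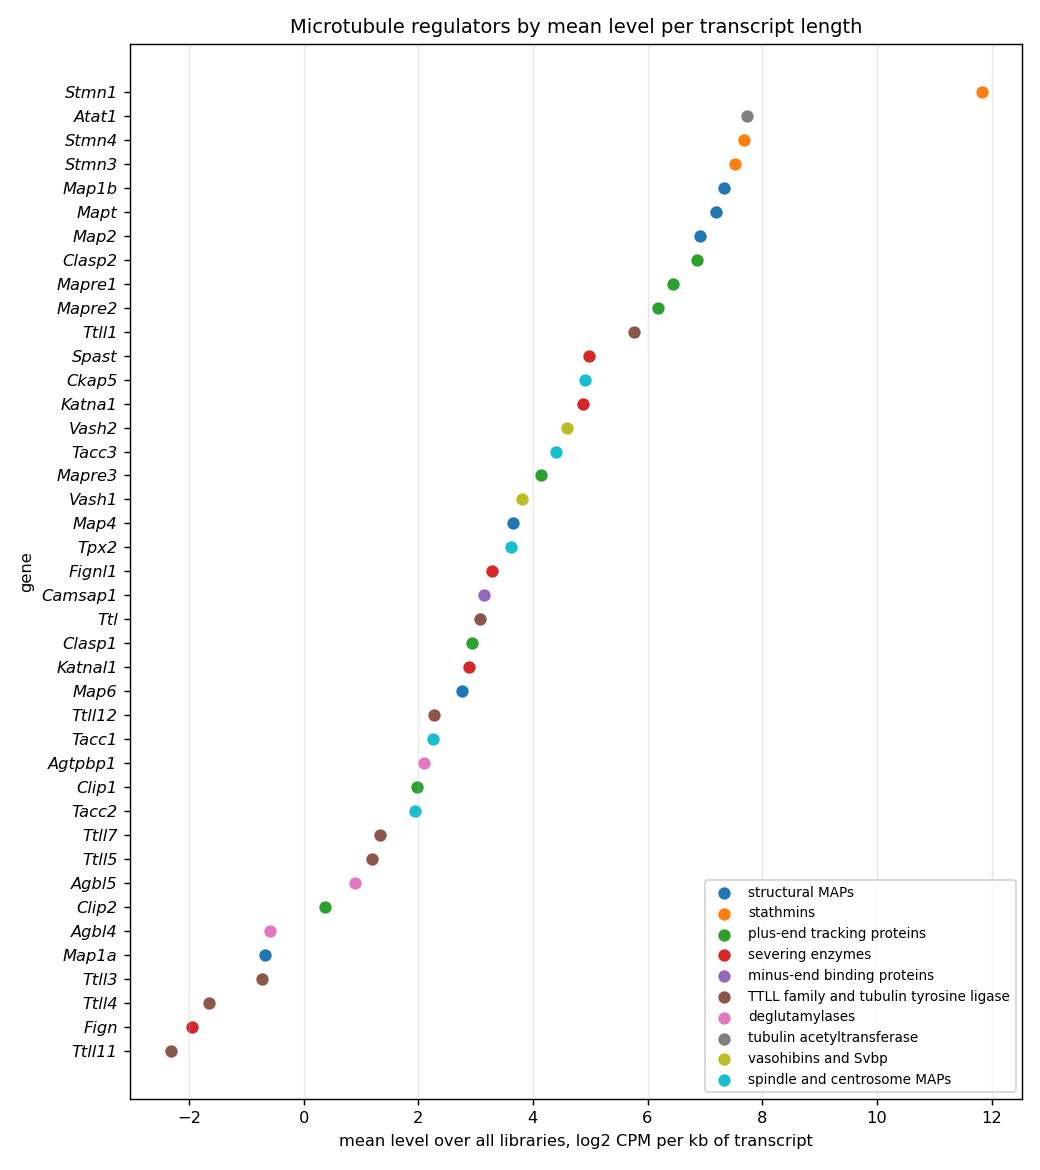
Mean level of the 41 microtubule regulators over all libraries, as log2 CPM per kb of the longest coding transcript on the horizontal axis, with 1 point per gene coloured by role. Stmn1 stands alone at 11.83, and Fign and Ttll11 are lowest at -1.94 and -2.31.

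The structural MAPs bind along the microtubule lattice and include the classical markers of axons and dendrites. Of the 6, none was called, 4 were positive and 2 negative, and the median log2 fold change was 0.19 in the authors' deposited table. Map1b, the MAP of growing axons, stood at 0.53, or 144% of the control level, at a mean log2 CPM of 10.90 with p = 0.0565 in the authors' deposited table. Its relative Map1a, which becomes prominent in mature neurons, stood at -0.76, or 59.1% of the control level, at the much lower mean log2 CPM of 2.89 with p = 0.123 in the authors' deposited table. The signs of these relatives differed, with a gap of 1.29 on the log2 scale, but a test of that gap needs values per library and was not made.

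Map6, a MAP that protects microtubules from cold, stood at 0.64 with p = 0.0921 in the authors' deposited table. Mapt, which encodes the axonal protein tau, stood at -0.33 (79.4% of control, p = 0.277) in the authors' deposited table. Map2 of dendrites stood at 0.17 (p = 0.507) and the widely expressed Map4 at 0.21 (p = 0.509) in the authors' deposited table. The axonal and dendritic MAPs Mapt and Map2 thus lay on opposite sides of 0.

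Stathmins bind free tubulin dimers and promote shrinkage of microtubules. None of the 3 was called, and their fold changes in the authors' deposited table ran from -0.35 to 0.06. Stmn3, a membrane-anchored neuronal stathmin, stood at -0.35 (78.7% of control, p = 0.204) and Stmn1 at -0.27 (83.1%, p = 0.275) in the authors' deposited table. Stmn4 stood at 0.06 with p = 0.814 in the authors' deposited table. The family member Stmn2, which is not among the 44 symbols, stood at 0.45 with p = 0.0906 in the authors' deposited table.

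Plus-end tracking proteins ride on growing microtubule ends and link them to the cell cortex, to membranes and to dynein. Of the 7, none was called, 4 were positive and 3 negative, with a median of 0.07 in the authors' deposited table. Clasp2 had the smallest p of all 41 genes, with a log2 fold change of 0.55 (146% of control) at a mean log2 CPM of 9.35 with p = 0.0472, adjusted p = 0.985 in the authors' deposited table. Clasp1, its closest relative, stood at -0.50 (71.0% of control) at a mean log2 CPM of 6.30 with p = 0.106 in the authors' deposited table. Both encode rescue factors that bind the lattice near the plus end, and their fold changes lay 1.04 apart on the log2 scale, a gap that was not tested.

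Clip2, a linker of membranes to microtubules, had the most negative value of the group, -0.72 at a low mean log2 CPM of 2.70 with p = 0.221 in the authors' deposited table. Clip1 stood at 0.18 with p = 0.601 in the authors' deposited table. The genes of the end-binding proteins, on which most other plus-end proteins depend, lay close to 0. Mapre1 stood at 0.17, Mapre2 at 0.07 and Mapre3 at -0.14 with p from 0.489 to 0.798 in the authors' deposited table.

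Severing enzymes are ATPases that extract tubulin from the lattice and so cut microtubules. All 5 had positive fold changes in the authors' deposited table (4 of 5 after that re-centring, which turned Katna1), none was called, and the median was 0.18. Fign, which encodes fidgetin, had the largest, 1.14 (p = 0.061), at a mean log2 CPM of only 1.34 in the authors' deposited table. Fignl1, a fidgetin-like gene that also serves in DNA repair, stood at 0.69 (162% of control, p = 0.0712) in the authors' deposited table. The better expressed severing genes lay nearer to 0.

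Spast, the spastin gene mutated in hereditary spastic paraplegia, stood at 0.18, Katnal1 at 0.11 and Katna1, the katanin catalytic subunit, at 0.03 with p from 0.533 to 0.916 in the authors' deposited table. Katnal2 and Katnbl1, further katanin-like genes, stood at 0.37 (p = 0.503) and at 0.25 (p = 0.331), respectively, in the authors' deposited table.

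At minus ends only Camsap1 was found, which shields free ends from shrinking, and it stood at -0.06 with p = 0.824 in the authors' deposited table. RefSeq gives an older symbol for each of the 3 absent genes that is a row of the table, although the rule for choosing genes did not take them. Under these older symbols Camsap2 stood at -0.0082 and Camsap3 at -0.07, while Svbp, the partner of the vasohibins, stood at 0.31 (p = 0.268) in the authors' deposited table.

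**Figure D2:**
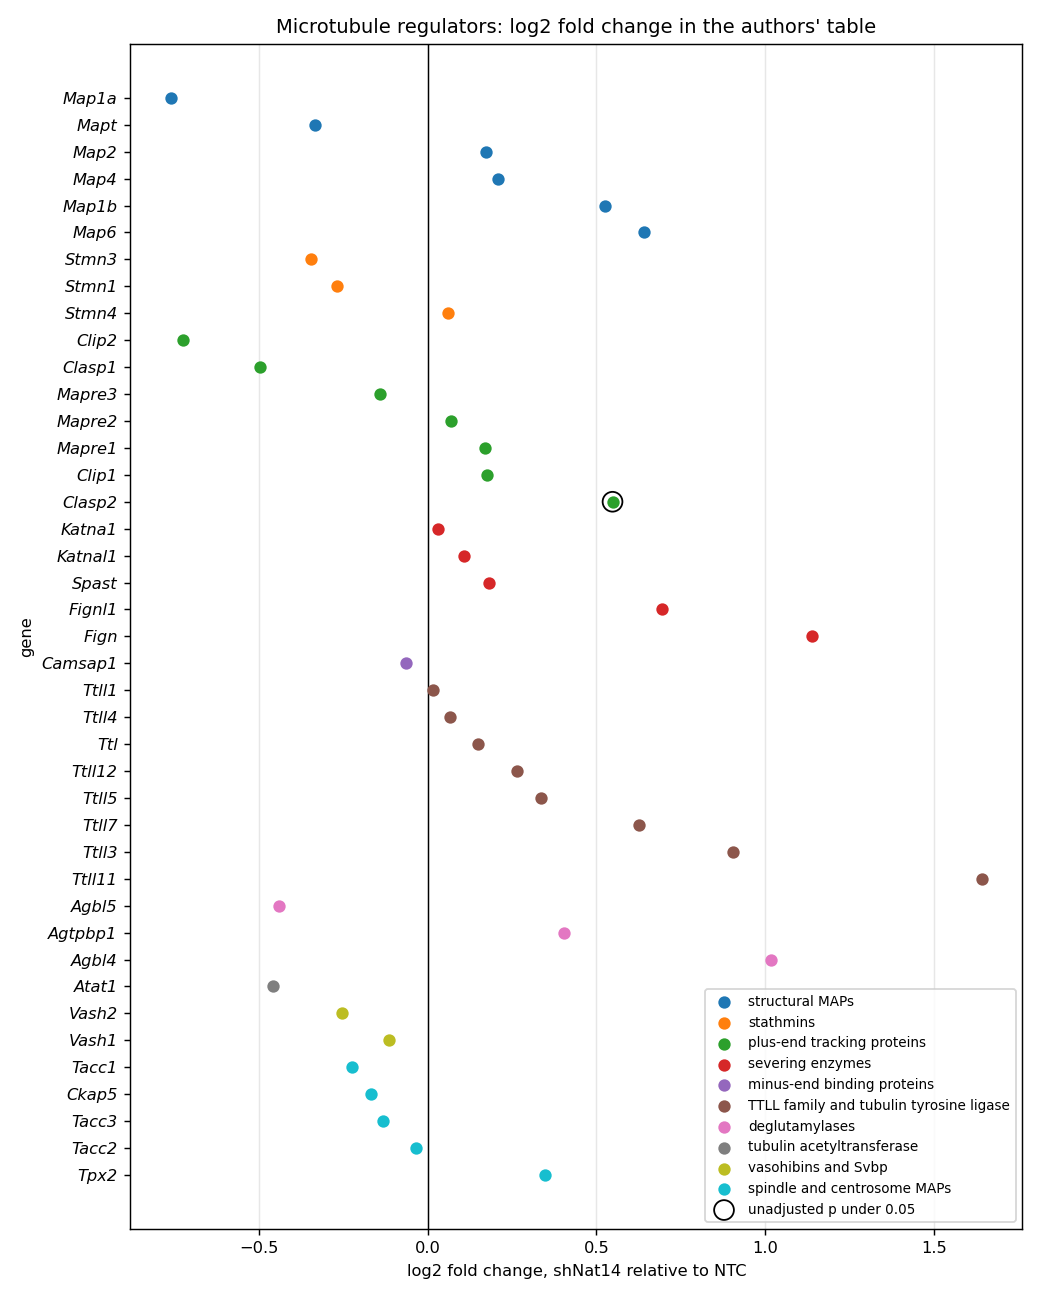
Differences of the 41 genes as log2 fold change, shNat14 relative to NTC, with 1 point per gene, grouped and coloured by role and sorted within it, and a ring around a gene with an unadjusted p under 0.05. The severing enzymes (5 of 5, or 4 after re-centring) and the TTLL family with Ttl (8 of 8, or 7) lie to the right of 0, the vasohibins (2 of 2) to its left, and only Clasp2 carries a ring.

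Most members of the tubulin tyrosine ligase-like (TTLL) family add glutamate or glycine chains to tubulin tails, and Ttl restores the terminal tyrosine of alpha-tubulin. All 8 genes of this group had positive fold changes in the authors' deposited table (7 of 8 after re-centring, which turned Ttll1), from 0.02 to 1.64 with a median of 0.30, and none was called. Ttll7, a polyglutamylase of neuronal beta-tubulin, had the smallest p, with 0.63 (154% of control) at a mean log2 CPM of 4.22 with p = 0.0846 in the authors' deposited table. Ttll11, which elongates glutamate chains, stood at 1.64 at a mean log2 CPM of -0.65 with p = 0.0871 in the authors' deposited table. The glycylase gene Ttll3 stood at 0.90 with a mean log2 CPM of 0.93 with p = 0.227 in the authors' deposited table.

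Ttll1, the catalytic subunit of a polyglutamylase complex of brain and the best expressed of the group, stood at 0.02 with p = 0.955 in the authors' deposited table. Ttl stood at 0.15, Ttll4 at 0.07, Ttll5 at 0.33 and Ttll12 at 0.27 with p from 0.467 to 0.94 in the authors' deposited table. The other TTLL genes and carboxypeptidases, 9 symbols outside the 44, all had a mean log2 CPM under 1.71, the median of the authors' deposited table. Of these 9, 5 were positive, 3 negative and 1 at 0, and none had an unadjusted p under 0.1.

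Deglutamylases are carboxypeptidases that shorten or remove these glutamate chains. Agtpbp1, whose loss causes Purkinje cell degeneration in mice, stood at 0.40 (132% of control, p = 0.19) in the authors' deposited table. Agbl4 stood at 1.02 at a mean log2 CPM of 0.98 (p = 0.117), and Agbl5, which removes branch-point glutamates, at -0.44 (p = 0.462) in the authors' deposited table. The 3 erasers of glutamylation therefore did not share a sign, and none was called.

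Atat1 acetylates alpha-tubulin inside the microtubule lumen, a mark of long-lived microtubules. It stood at -0.46, or 72.8% of the control level, at a mean log2 CPM of 8.77 with p = 0.18 in the authors' deposited table. The deacetylases that remove the mark are not among the 44 symbols. Sirt2 stood at -0.90 in the authors' deposited table, 53.7% of the control level (p = 0.000537, adjusted p = 0.145), the smallest p of any microtubule gene examined here. Hdac6 stood at -0.26 with p = 0.498 in the authors' deposited table.

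Sirt2 is also abundant in oligodendrocytes, and 7 of 8 genes of that lineage were negative in the authors' deposited table, with a median of -0.39. Cnp, a myelin enzyme, stood at -1.08 (p = 0.0191) in the authors' deposited table, and 0 of the 8 were called. The part of this lineage in the value of Sirt2 was not tested.

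Vasohibins cut the terminal tyrosine from alpha-tubulin and so act against Ttl. Vash2 stood at -0.25 (83.9% of control, p = 0.436) and Vash1 at -0.11 (p = 0.732) in the authors' deposited table, both negative where Ttl was positive at 0.15. None of these 3 values was called.

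Spindle and centrosome MAPs act in dividing cells, with Ckap5 and Tacc genes also present in growth cones. Of the 5, none was called, 4 were negative and 1 positive, with a median of -0.13 in the authors' deposited table. Tpx2, which nucleates spindle microtubules around chromosomes, stood at 0.35 (127% of control, p = 0.271), and Tacc3, which crosslinks spindle fibres, at -0.13 (p = 0.644) in the authors' deposited table. The microtubule polymerase gene Ckap5 stood at -0.17, Tacc1 at -0.22 and Tacc2 at -0.04 with p from 0.519 to 0.925 in the authors' deposited table.

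Genes of cycling cells, against which Tpx2 and Tacc3 can be read, were mostly positive, whereas the spindle and centrosome MAPs were mostly negative. Of 14, 10 were positive and 4 negative (9 and 5 after re-centring) with a median of 0.12, and none was called in the authors' deposited table. Cenpe, a kinetochore motor, had the smallest p (0.72, p = 0.0156), followed by the checkpoint kinase Bub1 (0.53, p = 0.15) in the authors' deposited table. Neuronal markers had a median of -0.04 and radial glia markers of -0.11 in the authors' deposited table. Of the 12 neuronal genes Gap43, a growth cone protein, had the smallest p (0.78, p = 0.0114) in the authors' deposited table. In bulk RNA of sorted cells, fewer cells of a type and less RNA per cell cannot be told apart.

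The smallest absolute fold change that was called differed between levels, as the plot of fold change against mean level shows. It comes from the called genes alone and is not a limit of detection, which cannot be given without values per library. Among the 4613 genes with a mean log2 CPM from 5 to 8, the smallest absolute log2 fold change that was called was 1.19 in the authors' deposited table, and the smallest with an unadjusted p under 0.05 was 0.48. The 19 microtubule regulators at this level ran from -0.50 to 0.64, and 12 of them lay within the interquartile range of all genes there, from -0.18 to 0.26 in the authors' deposited table. Of these 19 regulators 9 were positive, beside 54.9% of all genes at this level. Above a log2 CPM of 8 the 2 called genes began at 1.56, while the 9 microtubule regulators ran from -0.46 to 0.55 in the authors' deposited table, 4 of them within the interquartile range of -0.07 to 0.31. Of these 9 regulators 6 were positive, beside 66.2% of all genes at this level.

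Between a log2 CPM of 2 and 5 the 8 called genes began at 2.22, and 8 microtubule regulators ran from -0.76 to 0.69 in the authors' deposited table, 2 of them within the interquartile range of -0.27 to 0.31. Of these 8 regulators 5 were positive, beside 50.9% of all genes at this level. The 5 genes below the median level (Fign, Ttll3, Ttll4, Ttll11 and Agbl4) were all positive, with a median of 1.02, and 1 of the 5 lay within the interquartile range of genes below a log2 CPM of 2, from -0.95 to 0.73 in the authors' deposited table, where 45% of genes were positive. Differences of the size listed for these 41 genes were thus smaller than any that was called at their level, and a p that misses the threshold does not show equal expression.

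**Figure D3:**
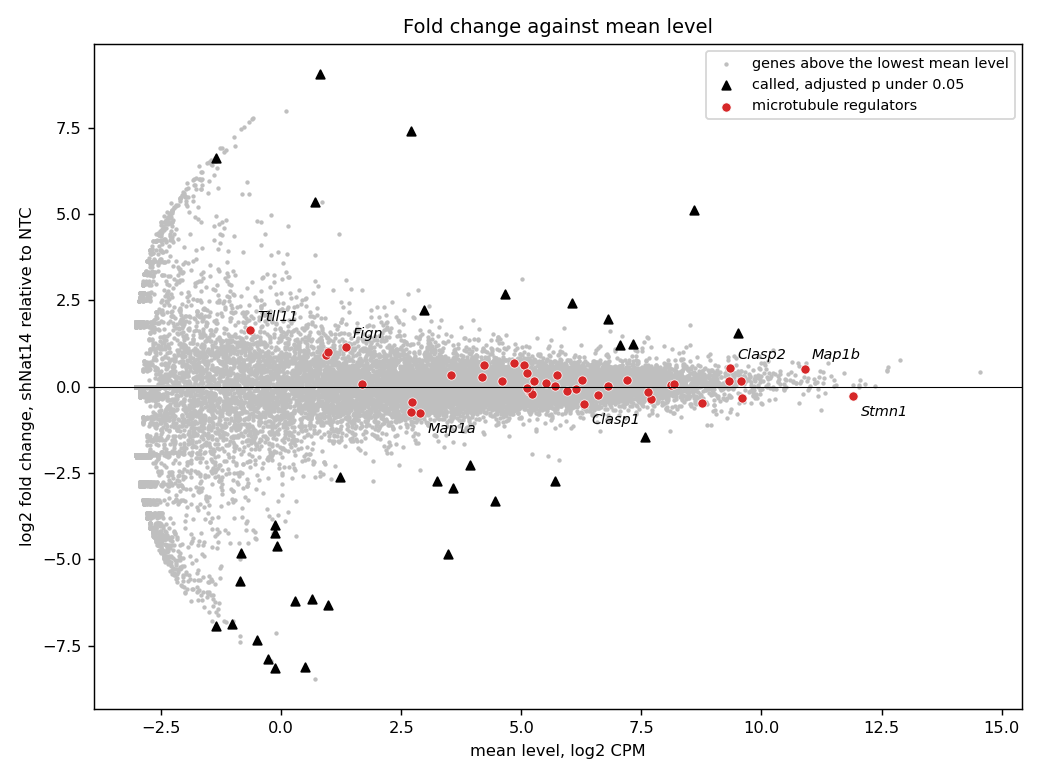
Log2 fold change, shNat14 relative to NTC, against mean level in log2 CPM for the 17400 genes above the lowest mean level (grey), the 34 called genes (black triangles) and the 41 microtubule regulators (red). The red points run from -0.76 to 1.64 and no triangle lies among them at a like level.

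Other microtubule genes were listed by function, with 97 of 98 found, 9 of these by an older symbol. None was called, and 4 of 97 had an unadjusted p under 0.05. These 4 were Sirt2, the beta-tubulin gene Tubb2b (-0.73, p = 0.039), the gamma-tubulin gene Tubg1 of nucleation (-0.54, p = 0.0444) and Gsk3b (0.68, p = 0.0326) in the authors' deposited table. Gsk3b was listed among the kinases and phosphatases that act on microtubule-associated proteins. The 97 genes had 53 positive and 43 negative values (49 and 48 after re-centring) and a median of 0.04 in the authors' deposited table, beside 0.07 for the 41.

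By function, 23 other MAPs and crosslinkers had a median of 0.17, with 17 positive (15 after re-centring), led by the spectraplakin gene Dst (0.53, p = 0.0785) in the authors' deposited table. The 16 other plus-end genes had a median of 0.06, led by Clip4 (0.75, p = 0.0935) and the adaptor gene Slain2 (0.49, p = 0.164), in the authors' deposited table. Genes of tubulin folding and nucleation were split evenly (8 positive and 8 negative, or 7 and 9 after re-centring), with the small nucleation factor Mzt1 at 0.33 (p = 0.184) in the authors' deposited table.

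Tubulins themselves were positive in 4 and negative in 10 of 14 (3 and 11 after re-centring), with a median of -0.14 and Tuba1c at -2.00 (p = 0.0614) in the authors' deposited table. Some isotypes within the alpha or the beta class are near-identical in their coding parts, and how reads that fit several of them were counted is not stated. Kinases and phosphatases of MAPs had a median of 0.20 over 14 genes but of -0.03 over the 12 that reached the median level, and Cdk5r1, the activator of the neuronal kinase Cdk5, stood at 0.77 (p = 0.0556) in the authors' deposited table.

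Markers of several other cell types lay further from 0 than the microtubule genes. Which cells in the sorted pools these marker transcripts came from was not tested. All 9 astrocyte genes were negative with a median of -1.10 (-0.68 over the 7 that reached the median level), and 1 was called, the angiotensinogen gene Agt (-6.33 at a mean log2 CPM of 0.98, adjusted p = 6.99e-06), in the authors' deposited table. The lipid carrier gene Apoe stood at -1.10 (p = 0.00021) and the folate enzyme gene Aldh1l1 at -1.15 (p = 0.00426) in the authors' deposited table. The well expressed Gja1, a gap junction gene, and Slc1a2, a glutamate transporter gene, lay near 0, at -0.09 and -0.05, in the authors' deposited table. All 8 microglia genes were negative with a median of -1.47, with C1qb at -1.62 (p = 0.00169) and C1qa at -1.42 (p = 0.0103) in the authors' deposited table, and none was called.

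Endothelial and mural genes had a median of 1.63 (0.79 over the 4 that reached the median level) and 7 of 8 positive values, none called, with Acta2 at 1.86 (p = 0.021) and Rgs5 at 1.41 (p = 0.0477) in the authors' deposited table. The exception in sign was the mural receptor gene Pdgfrb, at -0.75 (p = 0.187) in the authors' deposited table. The endothelial gene Cldn5, at a mean log2 CPM of 3.20, lay near 0, at 0.18 (p = 0.821) in the authors' deposited table. Genes of motile cilia and choroid plexus had a median of 0.99 and 7 of 8 positive values, none called, with Dynlrb2 at 1.48 (p = 0.0174) and Foxj1 at 1.36 (p = 0.0459) in the authors' deposited table. Ciliated cells use TTLL enzymes, and the part of these cells in the TTLL values was not tested. None of the 6 cortical regional factors was called, the smallest p being that of Emx2 (0.48, p = 0.249) in the authors' deposited table.

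**Figure D4:**
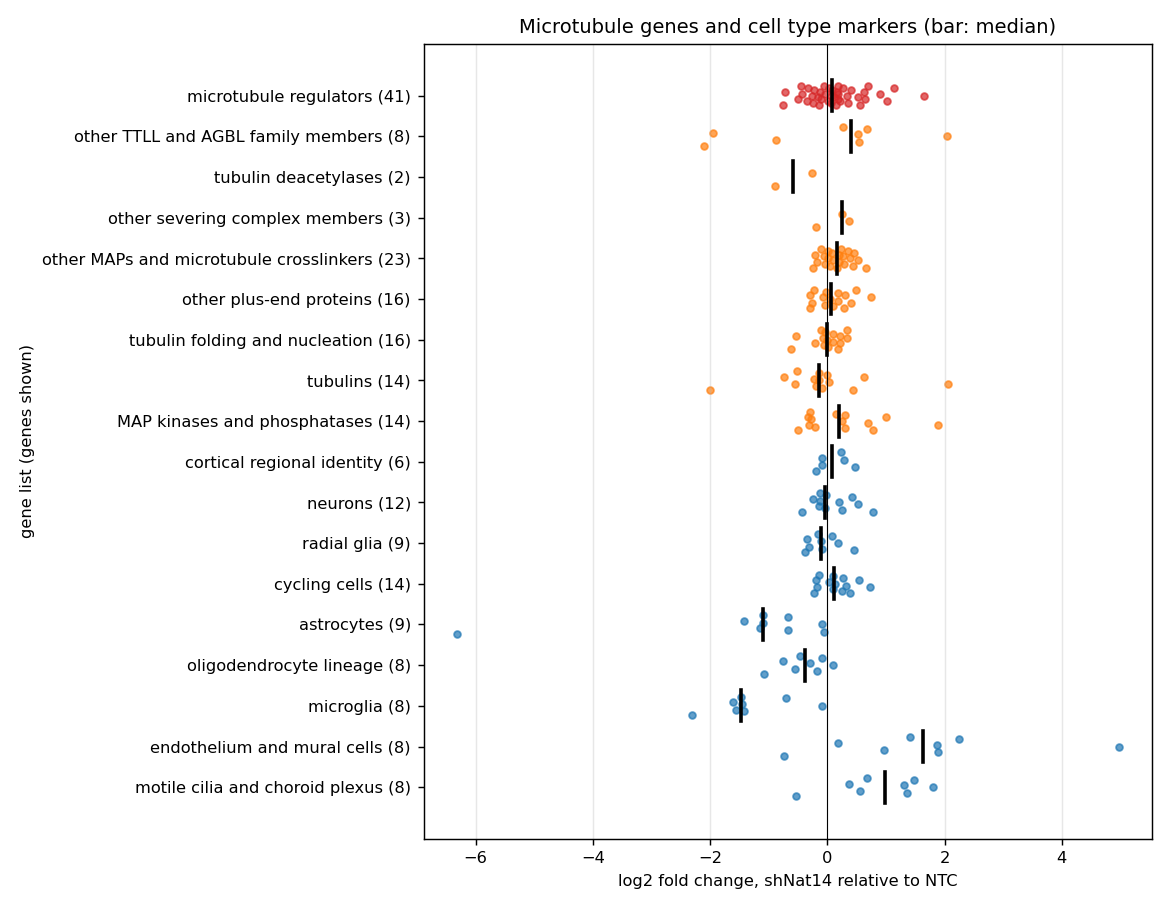
Differences as log2 fold change, shNat14 relative to NTC, of the 41 microtubule regulators (red), other microtubule gene lists (orange) and cell type markers (blue), with 1 point per gene above the lowest level, the number shown in parentheses and a black bar at each median. The microtubule lists centre between -0.58 and 0.40, whereas the microglia markers centre at -1.47 and the endothelial and mural markers at 1.63 (0.79 without those below the median level).

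Genomic span moved with the fold changes among the 41 genes. The 25 positive genes spanned a median of 69.7 kb of genome and the 16 negative ones 41.6 kb in the GENCODE annotation, while their transcripts differed less, at 4.92 and 4.51 kb. Spearman's rho between fold change and gene span was 0.42 over the 41 genes and 0.15 over 9697 genes of at least the median level with a length, a description across genes, which share the same libraries and are not replicates. For transcript length rho was 0.09 over the 41 genes and 0.12 over the 9697, and for mean level it was -0.31 and 0.075. The 41 include 5 genes below the median level, all positive, whereas the 9697 include none. The sets are thus unlike, and rho over the 36 regulators of at least the median level was not computed. The part of gene span and of level in the signs was not tested.

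Exons of 4 of the 41 genes overlap those of another gene in the table by at least 100 bases in the GENCODE annotation. Ttll3 overlaps Arpc4 on the same strand, and Agbl5, Map1a and Tacc3 overlap Ost4, Ppip5k1 and Tmem129 on the opposite strand. How reads in the shared part of Ttll3 and Arpc4 were assigned is not stated, nor is whether counting used strand, without which reads of the opposite-strand pairs cannot be told apart. The values of these 4 genes are uncertain to that extent.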

How the data were processed

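Groups came from the sample titles (3 shNat14 and 3 NTC libraries). The log2 fold changes, log2 CPM levels, p-values and adjusted p-values were deposited by the authors as 1 table and used as they stand, per the file headers. Per the submitters' processing notes, the tools included HTSeq 0.5.4p1, DESeq, SAMtools 0.1.19 and TopHat2 2.0.8, with no roles given, and the build was hg19, a human one, although the genes are mouse. The column names of the table are not those DESeq writes, so which test gave the p-values is unresolved. Filters, normalization and prior count are not stated, and no coordinates are printed. The adjusted p-values equal a Benjamini-Hochberg adjustment over all 21937 rows (tolerance 0.001), a function tested on simulated data.

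A gene was called where the deposited adjusted p was under 0.05. At the lowest mean level (log2 CPM -3.09) 4537 genes were left out of some backgrounds, as stated. The median level was 1.71. The members, roles and gene lists were chosen with earlier results of these data known. Named genes were those with unadjusted p under 0.05, the smallest p and the largest change per role, and up to 2 per list by p at or above the median level. Every other value printed completes a role or was chosen after it was seen (Agt, Gja1, Slc1a2, Pdgfrb, Cldn5, the X- and Y-linked genes). The values of some genes are not reported here. Tubb3, Dcx and Pax6 each stand in 2 lists. Older symbols came from RefSeq (GRCm38.p6) and lengths from GENCODE M21. Python 3.11.15, numpy 2.4.6 and pandas 2.3.3 were used.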

Additional observations from a re-analysis of the deposited data

How the results depend on the processing

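No microtubule regulator was called under any alternative tried (0 at adjusted p under 0.1, 0 by Bonferroni, 0 after adjustment over genes above the lowest level and 0 over genes of at least the median level, where the smallest adjusted p of a named gene was 0.843). The count at unadjusted p under 0.05 was 1, and 0 at p under 0.01. The median log2 fold change of the 41 genes was 0.07. It was 0.066 and 0.037 when re-centred on genes above the lowest level and on those of at least the median level, 0.046 over the 36 of the 41 genes that reach the median level, and 0.14 as a mean. It was 0.068 with the 3 absent genes added under older symbols, an alternative chosen after seeing the data. These re-centrings turned the sign of 0 and of 2 of the 41 genes, the latter being Katna1 and Ttll1, and 16 and 18 genes were then negative. No paired analysis was possible because the libraries' own values are not in the table used here, and for the same reason leaving out replicates and another count tool were not run. The depth per library is unknown.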
